A study of Mus musculus with 7 samples.

Results

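The collagen chain genes are the genes whose symbol reads Col, a number, a and a number, and each encodes 1 alpha chain of a collagen. They were taken from probe sets annotated with exactly 1 gene symbol, and a gene with several such probe sets was read through the one of highest mean across the 7 arrays. The rule found 44 of the 19938 genes measured. It uses no difference between cultures, but the chains were chosen for study with earlier results of these data known. By structure they were sorted into 11 fibrillar chains, 6 basement membrane chains, 3 network chains, 6 beaded filament chains, 9 FACIT chains, 4 transmembrane chains and 5 others.

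Collagens are extracellular proteins whose alpha chains wind around one another into a helix. Fibrillar collagens form the banded fibrils of connective tissue, FACIT collagens sit on the surface of such fibrils, type IV chains form the sheet of basement membranes, and type VI chains form beaded filaments. Fibroblasts are the main source of fibrillar collagen in connective tissue, and the chains they make are hydroxylated, folded, secreted, trimmed and cross-linked before a fibril is finished.

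The study set mouse embryonic fibroblasts (MEFs), induced pluripotent stem (iPS) cells and embryonic stem (ES) cells side by side in different culture media, with 7 Affymetrix arrays in all. OG2 ES cells were grown in N2B27(2i), a serum-free medium with a pair of kinase inhibitors, and gave 1 array. The iPS line O4-1 in the same 2i medium gave 1 array, and lines O4-1, O4-2 and O4-4 in KSR medium gave 3. These lines are recorded as fibroblasts infected with Oct4, each is a single line, and no genetic background is recorded for them. MEFs came from 129/OG2 mice at 13.5 dpc, with 1 array in iCD1 medium and 1 array in FBS medium. Groups follow the titles and the growth conditions, because other label fields differ from them: every description speaks of iPS cells soon after infection, the ES source reads fibroblasts, and the iPS sources name iCD1. The labels do not say whether the cultures were separate or held feeder cells. The p-values below measure only the spread between the 3 KSR arrays, since every other group has 1 array.

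The values are log2 expression per probe set as the authors deposited them, and 1 unit is a 2-fold difference. Array medians lay between 4.97 and 5.03, and with no signal over background at hand a low value may be background. Differences were tested with limma over all 19938 genes, and a gene was called at a Benjamini-Hochberg adjusted p under 0.05. Each error after a difference is limma's standard error, which rests on the spread of the 3 KSR lines and holds no part of the gap between both MEF arrays. All 8 of 8 pluripotency markers rose in the KSR lines against the MEFs in limma, with a median difference of 5.09. Pou5f1, which encodes Oct4, stood at 10.99, 10.99 and 10.61 in the KSR lines, at 10.77 in iPS cells in 2i and at 10.66 in ES cells, against 4.04 in MEFs in iCD1 and 3.40 in MEFs in FBS. Whether its values in the iPS lines include the Oct4 of the infection was not tested. Sox2 was at 9.97, 9.97 and 10.20 in the KSR lines, against 5.27 in MEFs in iCD1 and 5.21 in MEFs in FBS.

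Collagen chain genes were lower in KSR iPS lines than in MEFs, among them the main chains of fibrils, of fibril surfaces and of beaded filaments. In limma 21 of the 44 fell and 0 rose, where 14.3% of all genes fell and 12.1% rose. The median difference was -0.54 over the 44 chains and 0.00 over all genes, and 41 of the 44 differences were negative. For 32 of the 44 chains all 3 KSR lines lay below both MEF arrays, where 26.0% of all genes did, and for 30 all 5 pluripotent arrays did, where 22.0% of all genes did. In bulk RNA fewer cells of a type and less RNA per cell cannot be told apart. The calls depended on the KSR lines in the fit, since limma called 0 of the 44 chains without O4-1, 0 without O4-2 and 17 without O4-4, where 0%, 0% and 13.9% of all genes were called. At an unadjusted p under 0.05 the chains counted 21, 25 and 27 in these fits, where 29.1%, 34.7% and 37.2% of all genes passed. The plot of all chains on each array shows the pattern before any test.

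**Figure D1:**
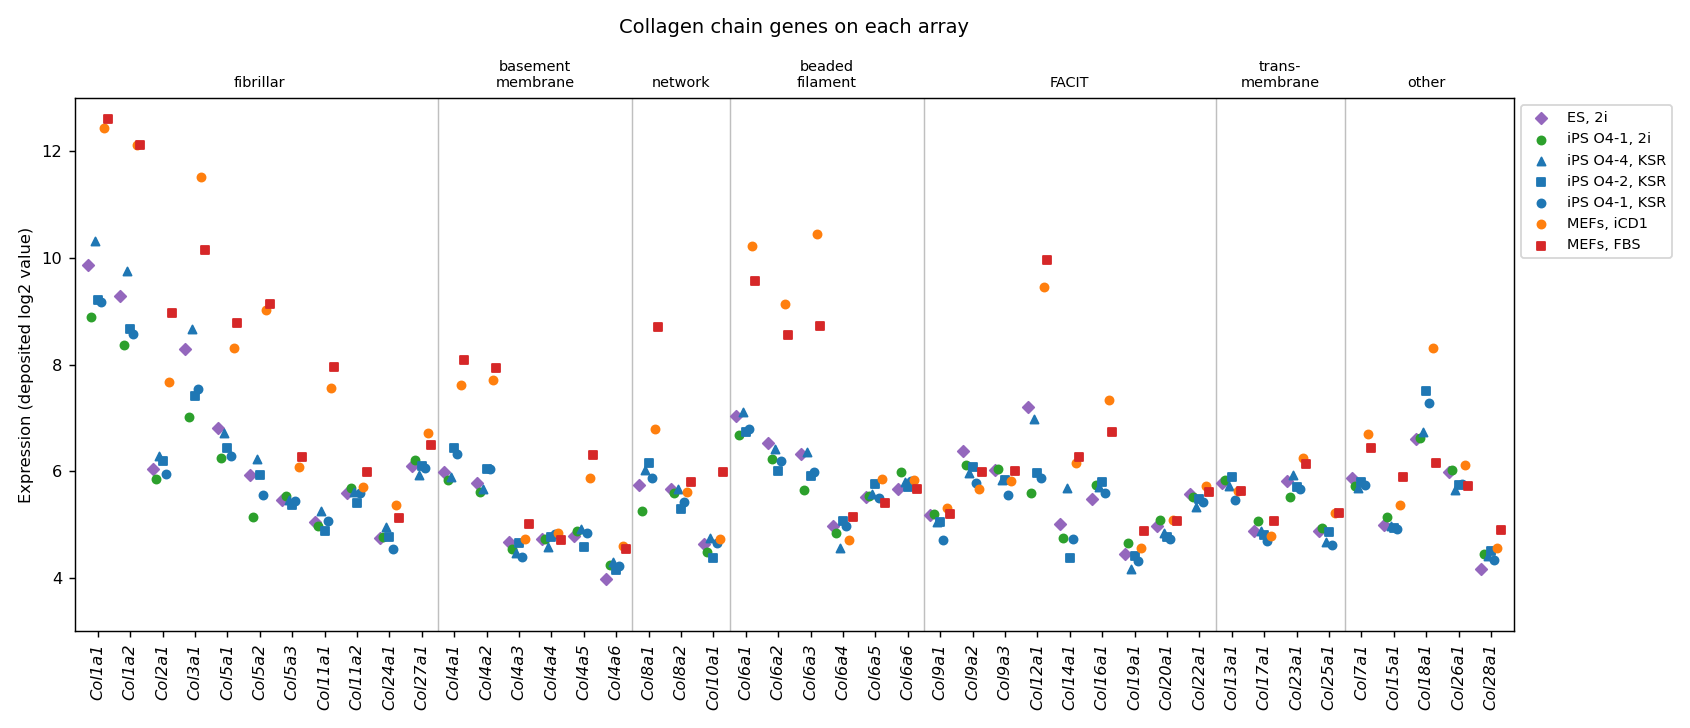
Deposited log2 value (vertical axis) of each of the 44 collagen chain genes (horizontal axis, by structural group) on the 7 arrays, 1 point an array. MEF points stand far above the pluripotent ones for chains such as Col1a1, Col6a3 and Col12a1, while the points of the transmembrane chains lie between 4.61 and 6.24.

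Of the fibrillar chains 9 of 11 fell, with a median difference of -2.18, where 14.3% of all genes fell. Col1a1 and Col1a2 encode the chains of type I collagen, the main fibril of skin, tendon and bone. Col1a1 was at 9.17, 9.21 and 10.32 in KSR lines O4-1, O4-2 and O4-4, against 12.45 in MEFs in iCD1 and 12.61 in MEFs in FBS. Col1a2 was at 8.58, 8.66 and 9.76 in the same KSR lines, against 12.11 and 12.13 in MEFs in iCD1 and FBS. Neither gene's groups overlapped, and O4-4 was the highest KSR line for both. Col1a1 fell by 2.96 ± 0.45 (7.79-fold, limma, adjusted p = 0.0232) and Col1a2 fell by 3.12 ± 0.45 (8.68-fold, limma, adjusted p = 0.0214). With MEFs in FBS as the only MEF array, Col1a1, Col3a1 and Col27a1 did not pass, at differences of -3.04, -2.28 and -0.46.

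Col3a1 encodes the chain of type III collagen, which shares fibrils with type I in skin and vessels. It was at 7.53, 7.41 and 8.67 in KSR lines O4-1, O4-2 and O4-4, against 11.52 in MEFs in iCD1 and 10.15 in MEFs in FBS, and fell by 2.96 ± 0.48 (limma, adjusted p = 0.0263). The lowest MEF array was still above the highest KSR line. Type V chains set the width of type I fibrils, and Col5a2 was at 5.56, 5.93 and 6.23 in the KSR lines, against 9.02 and 9.14 in MEFs in iCD1 and FBS. Its fall of -3.17 ± 0.24 (9.01-fold, limma, adjusted p = 0.00852) was the largest in the fibrillar group. Col5a1 fell by 2.07 ± 0.17 (limma, adjusted p = 0.00889), and Col5a3 fell by 0.75 ± 0.08 (limma, adjusted p = 0.0137).

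Of the fibrillar chains known best from cartilage, Col11a1 and Col2a1 fell and Col11a2 did not pass. Col11a1, a chain of type XI collagen at the core of cartilage fibrils, was at 5.07, 4.87 and 5.25 in the KSR lines, against 7.57 and 7.96 in MEFs in iCD1 and FBS (-2.70 ± 0.15, limma, adjusted p = 0.00745). Col2a1, the chain of type II collagen, was at 5.94, 6.19 and 6.29 in the KSR lines, against 7.66 in MEFs in iCD1 and 8.98 in MEFs in FBS (-2.18 ± 0.15, limma, adjusted p = 0.00787). Of the 6 cartilage and bone markers measured, 1 fell, where 14.3% of all genes fell. That marker was Sox9, a regulator of cartilage genes (-1.94 ± 0.25, limma, adjusted p = 0.0174). The other 5 did not pass, among them Acan, Matn1 and Comp. Summed over all 6, the log2 level was 24.4 to 25.2 in the KSR lines, against 27.5 and 28.4 in MEFs in iCD1 and FBS. That sum includes Sox9, at 5.15, 5.15 and 4.54 in the KSR lines, against 6.79 and 6.99 in MEFs in iCD1 and FBS. Of the 6 differences 3 were negative and 3 positive. The part of these markers in the result was not tested. Col27a1 fell by 0.57 ± 0.10 (limma, adjusted p = 0.0302). Col11a2 differed by -0.31 ± 0.11 and Col24a1 by -0.49 ± 0.16, and neither passed the test (limma, adjusted p = 0.139 and 0.116).

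**Figure D2:**
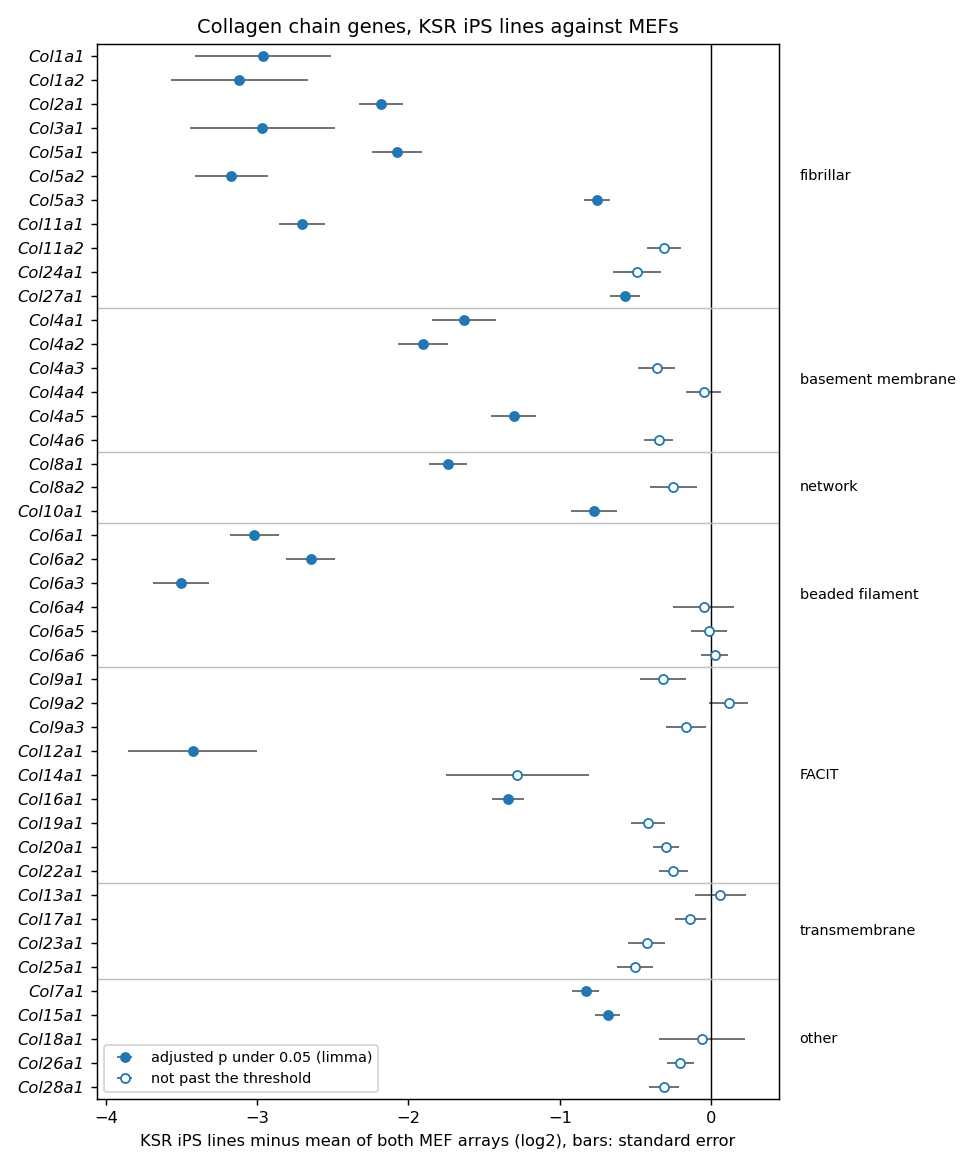
Mean of the 3 KSR iPS lines minus the mean of both MEF arrays (horizontal axis, log2) for each of the 44 chains (vertical axis), with limma's standard error as the bar and filled points for chains past the threshold. All 21 filled points lie left of 0, out to -3.50 for Col6a3, and the 4 transmembrane chains are all open.

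The 250 bases before the RefSeq start are shown for 4 of the chains that fell, because they are partners in shared fibrils or filaments: Col1a2 with Col3a1, and Col6a1 with Col6a2. The sequences are from RefSeq in build GRCm38.p6, are written 5′ to 3′ along the gene, and their capitals mark the CCAAT box (CCAAT, or ATTGG on the opposite strand), the GC box (GGGCGG, or CCGCCC on the opposite strand) and the TATA box (TATAAA, or TTTATA on the opposite strand). Col1a2 lies on the plus strand (chr6:4505368-4505617), Col3a1 on the plus strand (chr1:45311288-45311537), Col6a1 on the minus strand (chr10:76726045-76726294) and Col6a2 on the minus strand (chr10:76623631-76623880).
Col1a2: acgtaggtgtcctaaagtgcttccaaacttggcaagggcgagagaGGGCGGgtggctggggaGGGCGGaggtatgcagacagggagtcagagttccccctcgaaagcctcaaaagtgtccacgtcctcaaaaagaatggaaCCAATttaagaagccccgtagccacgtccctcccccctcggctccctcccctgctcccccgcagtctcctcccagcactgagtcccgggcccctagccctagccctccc
Col3a1: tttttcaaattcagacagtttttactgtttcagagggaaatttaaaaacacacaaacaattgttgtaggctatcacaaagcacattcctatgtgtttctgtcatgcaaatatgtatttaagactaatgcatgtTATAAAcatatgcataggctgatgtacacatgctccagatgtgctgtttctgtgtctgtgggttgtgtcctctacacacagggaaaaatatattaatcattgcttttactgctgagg
Col6a1: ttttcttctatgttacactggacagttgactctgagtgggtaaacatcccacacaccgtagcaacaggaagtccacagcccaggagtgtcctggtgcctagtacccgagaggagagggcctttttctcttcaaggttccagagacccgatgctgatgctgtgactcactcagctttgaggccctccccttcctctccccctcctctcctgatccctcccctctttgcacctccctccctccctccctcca
Col6a2: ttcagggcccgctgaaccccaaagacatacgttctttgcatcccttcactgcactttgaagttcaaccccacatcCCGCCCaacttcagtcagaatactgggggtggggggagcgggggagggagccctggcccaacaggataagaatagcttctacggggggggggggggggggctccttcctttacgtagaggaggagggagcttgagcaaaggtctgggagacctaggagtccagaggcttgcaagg
The Col1a2 window holds GC boxes that begin 205 and 188 bases before the start and a CCAAT box that begins 109 bases before it. The Col3a1 window holds a TATA box 117 bases before the start, the Col6a2 window holds a GC box on the opposite strand 175 bases before it, and the Col6a1 window holds none of these letters.

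RefSeq's table had a window for 35 of the 44 chains, 17 of those that fell and 18 of those not called. A chain was counted if any of its windows held the letters, whereas the share over all windows counts each window singly, so these shares differ in unit. A CCAAT box stood in 8 of the 17 chains and in 5 of the 18, and in 33.8% of all 32851 windows. A GC box stood in 11 of the 17 and 10 of the 18, and in 32.7% of all windows. A TATA box stood in 2 of the 17 and 3 of the 18, and in 12.4% of all windows. These matches describe letters only, and the search covered both strands and ignored overlap between motifs. Col4a1 and Col4a2 face away from each other, and their windows of 300 bases overlap by 78 bases.

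The beaded filament group held the largest fall. Col6a1, Col6a2 and Col6a3 encode the chains of type VI collagen that assemble together. Col6a3 was at 5.97, 5.91 and 6.36 in KSR lines O4-1, O4-2 and O4-4, against 10.45 in MEFs in iCD1 and 8.72 in MEFs in FBS. It fell by 3.50 ± 0.18 (11.3-fold, limma, adjusted p = 0.00706), while the MEF arrays themselves lay 1.73 apart. Col6a1 was at 6.78, 6.73 and 7.12 in the KSR lines, against 10.22 and 9.57 in MEFs in iCD1 and FBS (-3.02 ± 0.16, limma, adjusted p = 0.00708). Col6a2 was at 6.19, 5.99 and 6.41 in the KSR lines, against 9.13 and 8.56 in MEFs in iCD1 and FBS (-2.65 ± 0.16, limma, adjusted p = 0.0076). None of these 3 chains overlapped between the groups. The other members, Col6a4, Col6a5 and Col6a6, differed by -0.05, -0.01 and 0.02 and did not pass, and they overlapped between KSR lines and MEFs.

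Of the basement membrane chains 3 of 6 fell, where 14.3% of all genes fell. Col4a1 and Col4a2 encode the chains found in nearly all basement membranes. Col4a1 was at 6.32, 6.43 and 5.89 in KSR lines O4-1, O4-2 and O4-4, against 7.61 in MEFs in iCD1 and 8.08 in MEFs in FBS (-1.63 ± 0.21, limma, adjusted p = 0.0171). Col4a2 was at 6.04, 6.04 and 5.67 in the same KSR lines, against 7.70 and 7.94 in MEFs in iCD1 and FBS (-1.90 ± 0.17, limma, adjusted p = 0.00964). Here O4-4 was the lowest KSR line for both genes, unlike in the fibrillar group. Col4a5, a chain of kidney and other specialised basement membranes, fell by 1.30 ± 0.15 (limma, adjusted p = 0.0138). Col4a3, Col4a4 and Col4a6 differed by -0.36, -0.05 and -0.35 and did not pass (limma, adjusted p = 0.126, 0.808 and 0.0829).

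Markers of parietal and primitive endoderm, cells that lay down much type IV collagen in the embryo, did not move as 1 group. Of 9 such markers 3 fell (Gata6, Dab2 and Thbd), 1 rose (Lama1) and 5 did not pass in limma. Over all genes 14.3% fell and 12.1% rose. The summed log2 level of these markers ranged from 51.2 to 54.4 in the KSR lines, against 57.4 in MEFs in iCD1 and 58.0 in MEFs in FBS. Gata4, Sox7 and Sox17 differed by 0.04, -0.10 and 0.49 and did not pass. O4-4 was the lowest KSR line for 5 of the 9 markers and the highest for 1. Over all genes it was the lowest for 6877 of 19938 and the highest for 34.4%. Of 6 endothelial markers 2 rose (Pecam1, which mouse pluripotent cells also carry, and Tek), 2 fell (Cdh5 and Kdr) and 2 did not pass. Their summed level ranged from 27.03 to 27.8 in the KSR lines, against 24.3 and 24.7 in MEFs in iCD1 and FBS. That sum includes Pecam1, at 7.47, 7.20 and 8.09 in the KSR lines, against 3.89 and 4.14 in MEFs in iCD1 and FBS. The median of the 6 markers was 4.03, 4.07 and 4.03 in the KSR lines, against 4.03 and 4.02 in MEFs in iCD1 and FBS. The part of these cells in the result was not tested.

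The network chains build short-chain lattices, and 2 of 3 fell, where 14.3% of all genes fell. Col8a1, a chain of vessel walls and of the inner corneal membrane, was at 5.86, 6.14 and 6.03 in the KSR lines, against 6.79 in MEFs in iCD1 and 8.71 in MEFs in FBS. It fell by 1.74 ± 0.13 (limma, adjusted p = 0.00826), differed by -0.78 from MEFs in iCD1 alone and did not pass there, and the 2 MEF arrays differed more from each other than MEFs in iCD1 did from the KSR lines. Col10a1, the chain of hypertrophic cartilage, was at 4.64, 4.36 and 4.73 in the KSR lines, against 4.72 and 5.99 in MEFs in iCD1 and FBS. Its call (-0.77 ± 0.15, limma, adjusted p = 0.0409) rests on the FBS array, since O4-4 lay above MEFs in iCD1. With MEFs in iCD1 as the only MEF array Col10a1 differed by -0.14 and did not pass, and it was the only called chain whose groups overlapped. Col8a2 differed by -0.25 ± 0.15 and did not pass.

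Among the FACIT chains 2 of 9 fell, where 14.3% of all genes fell. Col12a1, whose product binds the surface of type I fibrils, was at 5.87, 5.97 and 6.99 in KSR lines O4-1, O4-2 and O4-4, against 9.45 in MEFs in iCD1 and 9.96 in MEFs in FBS. It fell by 3.43 ± 0.43 (10.8-fold, limma, adjusted p = 0.016). Col16a1, also a fibril-associated chain, was at 5.59, 5.79 and 5.70 in the KSR lines, against 7.33 and 6.74 in MEFs in iCD1 and FBS (-1.34 ± 0.11, limma, adjusted p = 0.00884). Both chains kept their groups apart. Col14a1, which binds fibrils as Col12a1 does, was at 4.73, 4.36 and 5.69 in the KSR lines, against 6.14 and 6.27 in MEFs in iCD1 and FBS. Its groups did not overlap either, but the spread of the KSR lines was wide and it did not pass (-1.28 ± 0.47, limma, adjusted p = 0.145). The 3 chains of type IX collagen, which coats cartilage fibrils, differed by -0.32 (Col9a1), 0.12 (Col9a2) and -0.17 (Col9a3) and did not pass, nor did Col19a1 (-0.42), Col20a1 (-0.30) and Col22a1 (-0.25).

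None of the 4 transmembrane chains, which stay anchored in the cell membrane, was called by limma, where 14.3% of all genes fell. At an unadjusted p under 0.05 there were 2 of 4, where 39.0% of all genes passed. Col25a1, known from neurons, differed by -0.50 ± 0.12 (limma, adjusted p = 0.0591) and Col23a1 by -0.43 ± 0.12 (limma, adjusted p = 0.0893). Col17a1, a chain of the hemidesmosomes of skin, differed by -0.14 and Col13a1 by 0.06. Of the 5 keratinocyte markers 0 passed, and 0 had an unadjusted p under 0.05 in limma, with a summed log2 level of 20.1 to 21.3 in the KSR lines, against 20.9 in MEFs in iCD1 and 21.3 in MEFs in FBS.

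Of the 5 remaining chains 2 fell, where 14.3% of all genes fell. Col7a1, the chain of the anchoring fibrils of skin, was at 5.74, 5.79 and 5.68 in the KSR lines, against 6.70 and 6.43 in MEFs in iCD1 and FBS (-0.83 ± 0.09, limma, adjusted p = 0.0124). Col15a1, a chain found beside basement membranes, fell by 0.68 ± 0.08 (limma, adjusted p = 0.0154), and with MEFs in iCD1 alone it differed by -0.41 and did not pass. Col18a1, the basement membrane chain whose end is released as endostatin, was at 7.27, 7.51 and 6.73 in the KSR lines, against 8.32 in MEFs in iCD1 and 6.15 in MEFs in FBS. The KSR lines thus lay between both MEF arrays, and their difference from the MEF mean was -0.06 ± 0.28 (limma, adjusted p = 0.907). Against MEFs in FBS alone the sign turned, to 1.02. Col26a1 and Col28a1 differed by -0.21 and -0.31 and did not pass.

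The genes that modify, fold, trim and cross-link collagen chains were lower along with the chains. Of 31 listed genes 28 were measured, 24 fell and 0 rose, with a median difference of -1.72 in limma, where 14.3% of all genes fell. Without 1 KSR line the calls were 0 (O4-1 left out), 0 (O4-2) and 17 (O4-4), where 0%, 0% and 13.9% of all genes were called. Serpinh1, the chaperone of collagen in the endoplasmic reticulum, was at 6.31, 6.42 and 6.32 in KSR lines O4-1, O4-2 and O4-4, against 8.53 in MEFs in iCD1 and 8.82 in MEFs in FBS (-2.33 ± 0.09, limma, adjusted p = 0.00659). All 3 catalytic subunits of prolyl hydroxylase fell, P4ha1 by -1.86, P4ha2 by -1.50 and P4ha3 by -2.48, as did their shared partner P4hb (-0.99). Of the lysyl hydroxylases Plod1 fell by 2.11 ± 0.18 and Plod3 fell by 1.82 ± 0.18, while Plod2 differed by -1.06 ± 0.35 and did not pass (limma, adjusted p = 0.118).

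Outside the cell, Bmp1, which cuts off the end propeptide of fibrillar collagens, fell by 2.60 ± 0.15, and Pcolce, which speeds that cut, fell by 2.59 ± 0.18. The enzymes that cross-link finished fibrils fell as well: Lox by -2.44, Loxl1 by -2.57, Loxl3 by -2.20 and Loxl4 by -2.57. Loxl1 was at 5.56, 5.64 and 6.21 in KSR lines O4-1, O4-2 and O4-4, against 7.96 in MEFs in iCD1 and 8.78 in MEFs in FBS. The sugar transferases Colgalt1 and Colgalt2 differed by -0.45 and -0.09 and did not pass. Pcolce2, a relative of Pcolce, was the only measured gene of the list with a positive difference (0.43 ± 0.18) and did not pass (limma, adjusted p = 0.195). Fkbp10, Adamts2 and Loxl2 were not analysed here.

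**Figure D3:**
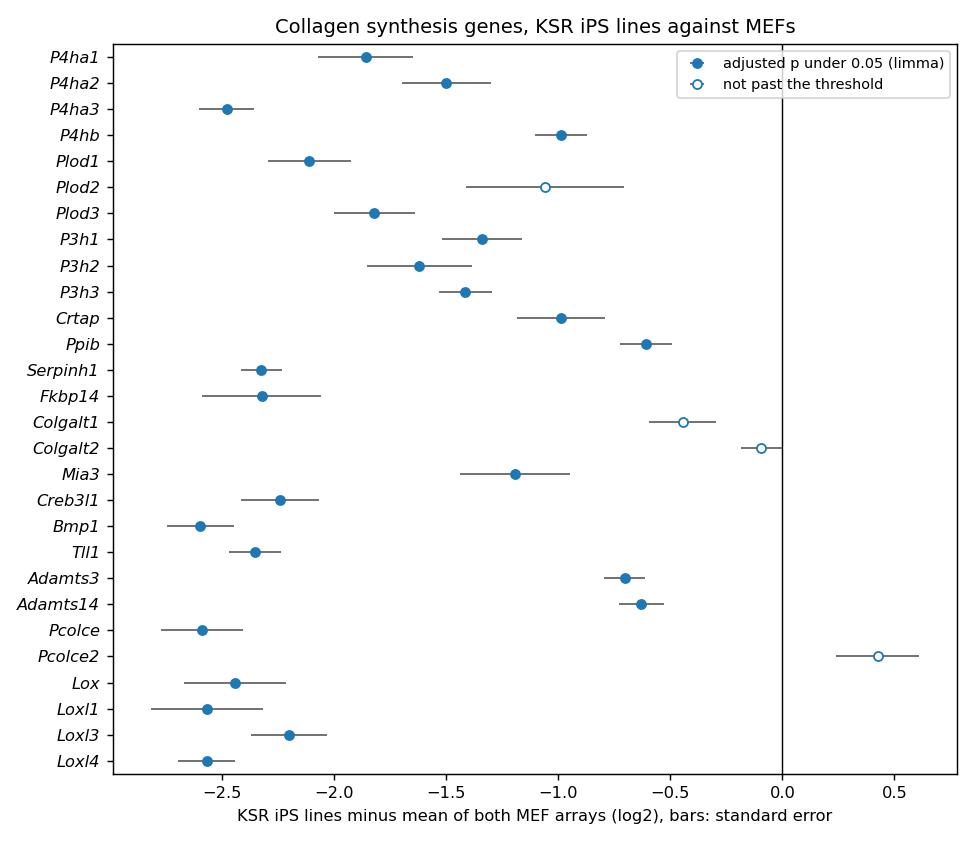
Mean of the 3 KSR iPS lines minus the mean of both MEF arrays (horizontal axis, log2) for the 28 measured genes of collagen synthesis (vertical axis), with limma's standard error as the bar and filled points for genes past the threshold. Filled points, 24 in all, lie left of 0, and Pcolce2 at 0.43 is the only point right of it.

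Fibroblast markers moved with the chains. Of 11 measured markers 9 fell and 0 rose in limma, where 14.3% of all genes fell and 12.1% rose. The median difference of the markers was -2.08, and Fbn1 was not analysed here. Their summed log2 level was 69.0, 68.7 and 70.7 in KSR lines O4-1, O4-2 and O4-4, against 101 in MEFs in iCD1 and 92.4 in MEFs in FBS. Prrx1, a fibroblast transcription factor, fell by 3.94 ± 0.14 and Pdgfra, a growth factor receptor of fibroblasts, fell by 3.87 ± 0.24. Lum and Dcn, small proteoglycans that bind collagen fibrils, did not pass, and for both the KSR lines overlapped MEFs in FBS. Lum was at 5.94, 5.37 and 6.87 in the KSR lines, against 9.94 in MEFs in iCD1 and 6.06 in MEFs in FBS. The part of fibroblast content in the fall of the chains was not tested.

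The chains were lower in the pluripotent arrays in 2i medium too. These comparisons share both MEF arrays with the one above, and each sets 1 array, assumed to vary like the KSR lines, against the MEF mean. Both counts were 0 whichever KSR line was left out, and the share over all genes in those fits is not given here. In iPS cells in 2i 18 of the 44 chains fell and 0 rose, where 8.85% of all genes fell, with a median difference of -0.55. In ES cells in 2i 15 of the 44 fell and 0 rose, where 7.46% of all genes fell, with a median difference of -0.61. Col6a3 was at 6.31 in ES cells and 5.65 in iPS cells in 2i, against 10.45 in MEFs in iCD1 and 8.72 in MEFs in FBS. It fell by 3.27 in ES cells and fell by 3.93 in iPS cells in 2i (limma, adjusted p = 0.0196 and 0.0153).

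Col1a1 was at 9.87 in ES cells and 8.90 in iPS cells in 2i, both below the MEF arrays at 12.45 and 12.61. The difference from the MEFs was -2.65 in ES cells and did not pass (limma, adjusted p = 0.0766), and was -3.63 in iPS cells in 2i and passed (limma, adjusted p = 0.042). Col1a2, Col3a1 and Col12a1 likewise did not pass in ES cells, at differences of -2.84, -2.55 and -2.50 (limma, adjusted p = 0.0696, 0.0926 and 0.0768). All 4 are chains with a wide spread among the KSR lines, with SDs of 0.62 to 0.70 (n = 3), which widens their standard errors.

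Among the KSR lines O4-4 stood apart in the fibril chains. Col1a1, Col1a2, Col3a1 and Col12a1 were 2-fold or more higher in O4-4 than in O4-1 (differences of 1.15, 1.18, 1.14 and 1.11), 4 of the 44 chains where 0.777% of all genes were, and 0 chains were lower, where 0.777% were. Against O4-2 the count was 5 of 44, with Col14a1 (1.33) besides, where 1.44% of all genes were higher, and 0 were lower, where 1.39% were. Between O4-2 and O4-1 0 chains differed 2-fold in either direction, where 0.281% of all genes were higher and 0.331% lower. O4-4 was the highest KSR line for 25 of the 44 chains, where 34.4% of all genes were, and for 10 of the 11 fibrillar chains. These are single arrays and have no test.

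Genes of other kinds differed in O4-4 as well. Ddr2, a receptor tyrosine kinase for fibrillar collagen, was at 7.01 in O4-4, against 5.95 in O4-2 and 5.86 in O4-1. Lum was at 6.87 and Dcn at 7.54 in O4-4, against 5.37 and 6.99 in O4-2 and 5.94 and 6.63 in O4-1. Over the whole fibroblast list O4-4 was the highest KSR line for 6 of 11 markers, where it was for 34.4% of all genes. It was the lowest KSR line for the other 5, Pdgfra, Thy1, Twist2, S100a4 and Vim, where it was for 6877 of all 19938 genes. Of the 8 pluripotency markers O4-4 was the highest KSR line for 5 and the lowest for 3. Against O4-2, 3 of them were 2-fold or more higher in O4-4 (Nanog, Zfp42 and Esrrb) and 1 was lower (Utf1). The part of other cells in the difference between lines was not tested.

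**Figure D4:**
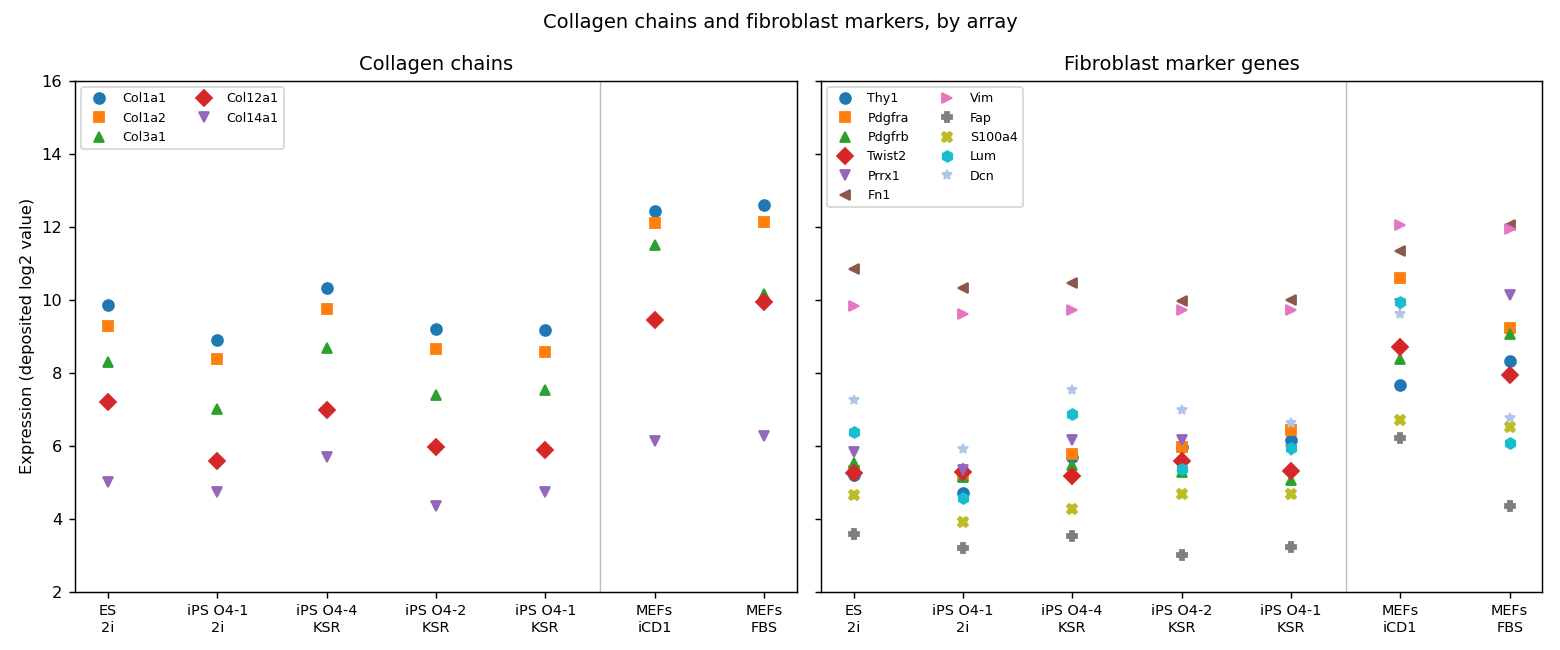
Deposited log2 values (vertical axis) on the 7 arrays (horizontal axis) of the 5 chains at least 2-fold higher in O4-4 than in O4-2 (left) and of the 11 measured fibroblast markers (right), 1 point an array. Col12a1 stands at 7.20 in ES cells and 6.99 in O4-4, and at 5.59 in iPS cells in 2i, below 9.45 and 9.96 in MEFs in iCD1 and FBS.

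Limma called 0 of all 19938 genes between either 2i array and the KSR lines, so its 0 chains are not particular to collagens. With 1 array for each 2i culture, medium, origin and single culture cannot be told apart. Between iPS cells in 2i and the KSR lines limma called 0 of the 44 chains, where 0% of all genes were called, and 1 of 44 had an unadjusted p under 0.05, where 6.72% of all genes had. That chain was Col8a1, at 5.24 in iPS cells in 2i, against 5.86, 6.14 and 6.03 in the KSR lines (-0.77 ± 0.16, limma, adjusted p = 0.727). The median difference of the 44 chains was 0.02. iPS cells in 2i lay below all KSR lines for 14 chains, where 23.7% of all genes did, and above all of them for 14, where 27.4% did. The fibrillar chains split as 6 below and 3 above, and the FACIT chains as 1 below and 6 above. Of the 11 fibroblast markers 7 lay below all KSR lines and 0 above, with a summed log2 level of 63.2 in iPS cells in 2i, against 68.7 to 70.7 in the KSR lines.

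Line O4-1 itself was measured in both media, with 1 array each and no test. No chain differed 2-fold between 2i and KSR, where 0.481% of all genes were higher and 0.953% lower. The chains split, with 25 of 44 higher in 2i and 19 lower, where 10338 of all 19938 genes were higher and 9220 lower. Of the 9 FACIT chains 8 were higher, with differences from -0.28 to 0.49 over the group. The largest differences were those of Col18a1 (6.63 in 2i and 7.27 in KSR), Col8a1 (5.24 in 2i and 5.86 in KSR) and Col3a1 (7.02 in 2i and 7.53 in KSR). The largest difference upward was that of Col9a3 (6.05 in 2i and 5.56 in KSR), followed in size by Col4a1 (5.84 in 2i and 6.32 in KSR). All 9 endoderm markers were lower in 2i, 2 of them 2-fold or more (Dab2 and Lamb1), with a summed log2 level of 48.7 in 2i and 54.4 in KSR. Of the 11 fibroblast markers 9 were lower in 2i, 3 of them 2-fold or more (Thy1, Pdgfra and Lum), with a summed level of 63.2 in 2i and 69.0 in KSR. The part of these cells in the differences was not tested.

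ES cells in 2i against the KSR lines also gave 0 calls among the 44 chains in limma, where 0% of all genes were called, and 0 of 44 at an unadjusted p under 0.05, where 8.76% of all genes had one. The median difference was 0.08, and ES cells lay above all KSR lines for 17 chains, where 26.3% of all genes did. Against iPS cells in the same 2i medium, 1 array against 1, ES cells were 2-fold or more higher for 2 of the 44 chains, where 0.672% of all genes were, and lower for 0, where 0.306% were. Col12a1 was at 7.20 in ES cells and 5.59 in iPS cells in 2i (3.06-fold), and Col3a1 was at 8.29 in ES cells and 7.02 in iPS cells in 2i (2.41-fold). Col1a1 lay just short of that fold, at 9.87 in ES cells and 8.90 in iPS cells in 2i. Lum (6.37 in ES cells and 4.56 in iPS cells in 2i) and Dcn (7.25 in ES cells and 5.91 in iPS cells in 2i) had the same order. The summed log2 level of the fibroblast markers was 69.7 in ES cells and 63.2 in iPS cells in 2i, and its part in the difference was not tested.

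Between MEFs in iCD1 and MEFs in FBS the chains differed in both directions. In iCD1 3 of the 44 chains were 2-fold or more higher than in FBS, where 1.70% of all genes were, and 3 were lower, where 0.998% were, from 1 array each and with no test. Col18a1 was at 8.32 in MEFs in iCD1 and 6.15 in MEFs in FBS (4.49-fold), Col6a3 at 10.45 in iCD1 and 8.72 in FBS (3.32-fold), and Col3a1 at 11.52 in iCD1 and 10.15 in FBS (2.58-fold). The chains higher in iCD1 included all of the main type VI chains, Col6a1 by 0.64 and Col6a2 by 0.57 besides Col6a3. Lower in iCD1 were Col8a1 (6.79 in iCD1 and 8.71 in FBS, 3.78-fold), Col2a1 (7.66 in iCD1 and 8.98 in FBS, 2.48-fold) and Col10a1 (4.72 in iCD1 and 5.99 in FBS, 2.41-fold). Type I collagen differed little, with Col1a1 at 12.45 in iCD1 and 12.61 in FBS and Col1a2 at 12.11 in iCD1 and 12.13 in FBS.

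**Figure D5:**
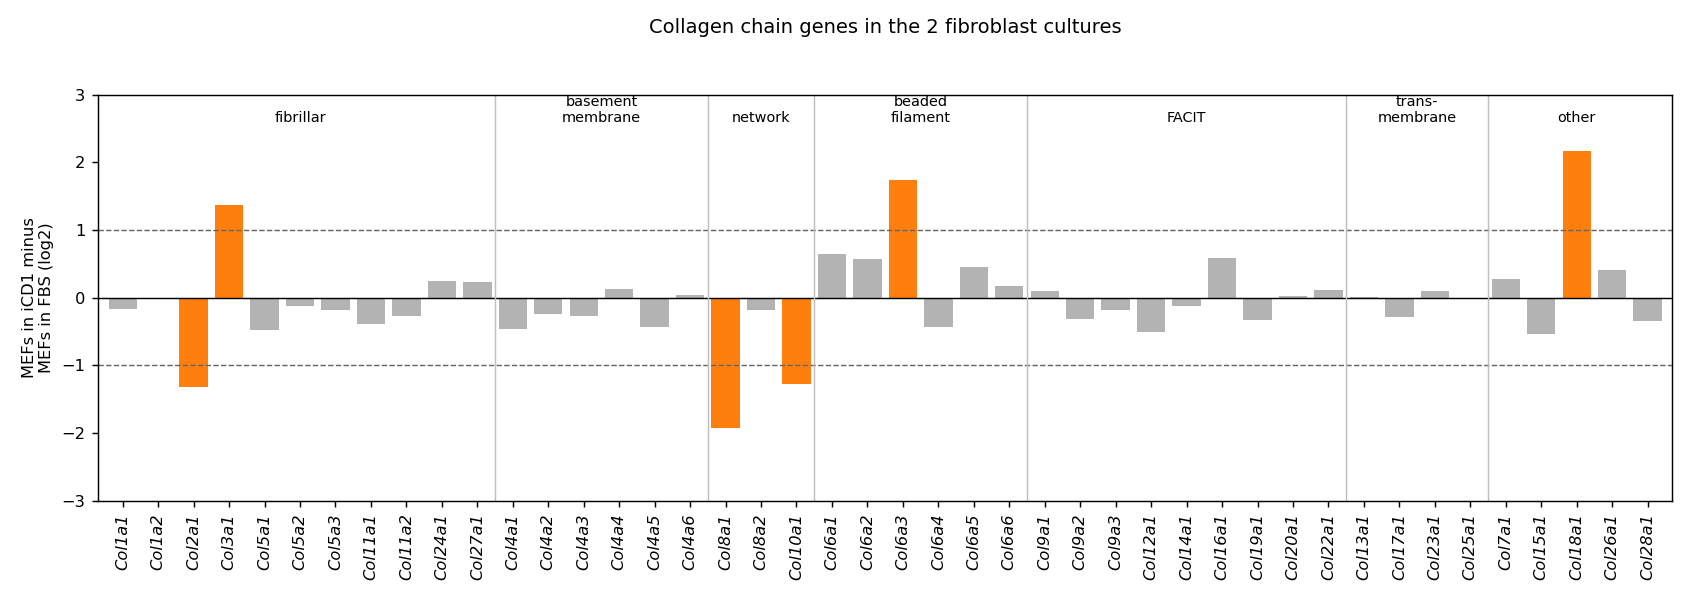
MEFs in iCD1 minus MEFs in FBS (vertical axis, log2, 1 array each) for the 44 chains (horizontal axis, by structural group), with dashed lines at a 2-fold difference and coloured bars past them. Col18a1, Col6a3 and Col3a1 stand above the upper line, and Col8a1, Col2a1 and Col10a1 below the lower one.

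The fibroblast markers and the genes of collagen synthesis also differed between the MEF media. Of the 11 markers 4 were 2-fold or more higher in iCD1 and 0 lower, and these were Lum (9.94 in iCD1 and 6.06 in FBS), Dcn (9.61 in iCD1 and 6.78 in FBS), Fap (6.22 in iCD1 and 4.35 in FBS) and Pdgfra (10.61 in iCD1 and 9.24 in FBS). Of the 28 synthesis genes 4 were lower in iCD1 and 0 higher, namely Tll1 (5.86 in iCD1 and 7.65 in FBS), Lox (9.14 in iCD1 and 10.50 in FBS), P4ha2 (6.74 in iCD1 and 7.97 in FBS) and Pcolce2 (6.20 in iCD1 and 7.29 in FBS). Since 2 arrays carry this comparison, culture and medium cannot be told apart.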

How the data were processed

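RNA from 7 mouse cultures was measured on 7 arrays. The authors deposited log2 values per probe set, and the submitters' processing notes name RMA and Partek with no version. Of 28853 probe sets, the array's annotation gave 21789 exactly 1 symbol, and keeping 1 per gene, by highest mean, left 19938 genes. No coordinate is given for a probe set.

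The values were tested as deposited with limma 3.58.1 (R 4.3.3), in a single two-sided fit of the 5 groups, and p-values were adjusted by Benjamini and Hochberg's method over all genes, at a threshold of 0.05. Only the KSR lines have replicates. They supply 2 residual degrees of freedom, and limma's prior supplies 1.62 more (prior SD 0.13), so the number of arrays limits the precision. All arrays held different values, and the labels name no batch. The fit was tested on simulated data.

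The chains, the lists of synthesis and receptor genes and the marker lists (fibroblast, pluripotent, endoderm, endothelium, cartilage and bone, keratinocyte) were chosen with earlier results of these data known. Every chain may be named. Values on each array were given in full, in each structural group, for the chains of the highest mean and of the largest difference. Alternatives were the mean of all probe sets, a filter on low genes, quantile normalization, a trended prior, 1 KSR line left out, 1 MEF array alone and a fold of 1.5.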

Additional observations from a re-analysis of the deposited data

How the results depend on the processing

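The calls of collagen chains in KSR iPS lines against MEFs depended most on the KSR lines in the fit, and 18 to 21 chains were called in every setting that kept all 3. With 1 KSR line left out, 0 to 17 chains were called (0 without O4-1, 0 without O4-2 and 17 without O4-4), and 21, 25 and 27 had an unadjusted p under 0.05 in limma. The 28 synthesis genes gave 0 to 17 calls in the same settings, and all genes 0, 0 and 2776 (5260 with all lines). Chains called in iPS cells in 2i and in ES cells against MEFs were 0 to 0 there, and the cause was not tested. With MEFs in FBS alone, 10 chains fell in iPS cells in 2i (18 with both MEF arrays), with MEFs in iCD1 alone 8 fell in ES cells (15 with both), and all genes gave 2968 calls for KSR lines with MEFs in FBS alone. At 1.5-fold, ES cells exceeded iPS cells in 2i for 6 chains, and O4-1 was lower in 2i for 2, and the share over all genes at that fold is not given here. With MEFs in FBS alone Col1a1, Col3a1 and Col27a1 lost their call in KSR lines, with MEFs in iCD1 alone Col8a1, Col10a1 and Col15a1, and without O4-4 Col5a3, Col27a1, Col10a1 and Col15a1.

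The sign turned 16 times, in 8 chains and in 0 of the 21 called. With 1 KSR line left out, the difference ranged from -0.101 to 0.022 for Col4a4, from -0.151 to 0.104 for Col6a4, from -0.0877 to 0.0397 for Col6a5, from -0.0375 to 0.175 for Col13a1 and from -0.230 to 0.159 for Col18a1. With MEFs in FBS alone it was 0.0146 for Col4a4, 0.214 for Col6a5, -0.0424 for Col9a2 and 1.02 for Col18a1, and with MEFs in iCD1 alone 0.165 for Col6a4, -0.0646 for Col6a6 and 0.00707 for Col17a1. With probe sets averaged it was 0.190 for Col6a5 and -0.0303 for Col6a6, and after quantile normalization 0.0935 for Col6a5. The cause was not tested beyond what each setting leaves out. No paired test was possible because only line O4-1 was measured in both KSR and 2i, with 1 array each.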

Other observations

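Of 8 measured receptor genes of collagen 4 fell and 0 rose in KSR iPS lines against MEFs in limma, with a median difference of -1.16, where 14.3% of all genes fell. Ddr2, the receptor kinase of fibrillar collagen, was at 5.86, 5.95 and 7.01 in KSR lines O4-1, O4-2 and O4-4, against 9.53 in MEFs in iCD1 and 9.57 in MEFs in FBS (-3.28 ± 0.44, limma, adjusted p = 0.0186). Mrc2, which takes up collagen for breakdown, was at 5.62, 6.28 and 5.87 in the KSR lines, against 9.22 in MEFs in iCD1 and 8.10 in MEFs in FBS (-2.74 ± 0.24, limma, adjusted p = 0.00969). The integrin chains Itga2 (-1.18) and Itga11 (-1.23) also fell, while Ddr1 (-1.07), Itga1 (-1.15), Itga10 (-0.29) and Adgrg1 (0.09) did not pass. Adgrg1 was at 6.26 in ES cells and 5.21 in iPS cells in 2i.

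Laminin, the partner of type IV collagen in basement membranes, differed in sign between its chains. Lama1 was at 7.18, 6.45 and 6.93 in KSR lines O4-1, O4-2 and O4-4, against 5.30 in MEFs in iCD1 and 4.46 in MEFs in FBS, and rose by 1.97 ± 0.26 (limma, adjusted p = 0.0184). Lamb1 was at 8.03, 8.27 and 7.42 in the KSR lines, against 9.66 in MEFs in iCD1 and 8.87 in MEFs in FBS, and did not pass (-1.36 ± 0.31, limma, adjusted p = 0.0534). Col4a1 and Col4a2 fell in the same comparison.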
